A study of Mus musculus with 6 samples.

Results

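The genes described here carry out S phase, the copying of the genome: 42 genes of origin licensing, the replicative helicase, the DNA polymerases, the sliding clamp and its loader, deoxynucleotide supply, chromatin assembly behind the fork, and the E2F and cyclin E switch that starts it. They were chosen by name, as probes of the array whose annotated symbol is on the list, with a value on at least 3 of the 6 arrays in the authors' table. In all, 41 of the 23473 probes on the array met this rule, and they stand for 40 of the 17820 genes with a kept probe. All 41 had a value on all 6 arrays and lay above background on all 6, so none passed through 1 group alone. No probe is named for Rfc4 or Ccne2 in the annotation used here. Lig1 has 2 probes, and every other gene has 1.

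The cells were astrocytes grown from the cortex of newborn (P0) C57BL/6J mice whose Chd7 alleles are floxed, that is, flanked by sites at which Cre recombinase cuts out the DNA between them. Both groups carried the floxed alleles, and both were kept in 10% FBS with FGF2, EGF and B-27. The control group (3 arrays) received a control lentivirus and the Cre group (3 arrays, titled Chd7 KD) a Cre lentivirus, and RNA was harvested 3 days after infection. Cre was present only where Chd7 was targeted, so what Cre itself does to the cells and what the loss of Chd7 does cannot be told apart. The labels do not give the promoter that drives Cre or the share of cells infected. Nor do they say that replicates are separate cultures or litters, and the spread behind every p-value may therefore be technical.

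DNA replication is prepared in G1, when the origin recognition complex, Cdc6 and Cdt1 load the Mcm helicase ring onto DNA, and is fired in S phase, when Cdc45 and the GINS complex activate that ring. Many of these genes are transcribed in a burst at the end of G1, when cyclin-dependent kinases release E2F factors from the retinoblastoma protein. Their summed mRNA is therefore often used as a measure of how many cells in a culture are cycling. Astrocytes of newborn cortex divide in culture, and FGF2, EGF and serum are mitogens for them. In bulk RNA, fewer cells in S phase and less of an mRNA per cell cannot be told apart.

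Upstream sequences were set beside the list because its members are known as a co-transcribed group. RefSeq promoter windows (GRCm38.p6) were matched for 34 of the 42 genes, with 40 start sites; Gmnn, Mcm4, Gins1, Gins2, Pole, Prim2, Rfc2 and Ccne2 had no match. In the 250 bases before the start, an E2F core (TTCCCGC as the first word searched, TTCGCGC as the second, TTGCCGC as the third and TTGGCGC as the fourth, on either strand, matches allowed to overlap each other) occurred in 17 of 40 windows (42.5%), against 2591 of 32851 windows of all genes (7.89%). The CCAAT box, the letters that NF-Y binds (CCAAT, either strand), was in 24 of the 40 windows (60%) and in 33.8% of all windows. The GC box (GGGCGG, either strand) was in 26 (65%) and in 32.7% of all. The letters TTTGAA, the CHR element of mitotic genes (either strand), were in 4 (10%) and in 16% of all. Median GC content was 60.4% in the members' windows and 52.4% in all windows, and the E2F words and the GC box are rich in G and C. These matches describe letters, not bound sites.

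The windows below all hold an E2F core, as 17 of the 40 do, and windows without a core are not printed. Mcm6 and Mcm5 are helicase subunits shown for their repeated cores. Rrm2 had the largest difference between the groups, and Chaf1a and Rfc3 had groups that did not overlap. Each window is the 250 bases before the start, 5′ to 3′ on the gene's strand, with E2F cores in capitals.
Mcm6 (chr1:128359706-128359955, minus strand): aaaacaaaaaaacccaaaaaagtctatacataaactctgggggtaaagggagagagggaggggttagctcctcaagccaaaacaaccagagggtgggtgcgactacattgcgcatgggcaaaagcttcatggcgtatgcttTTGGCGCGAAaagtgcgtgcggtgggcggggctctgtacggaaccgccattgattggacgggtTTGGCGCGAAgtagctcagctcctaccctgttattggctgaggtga
Mcm5 (chr8:75109259-75109508, plus strand): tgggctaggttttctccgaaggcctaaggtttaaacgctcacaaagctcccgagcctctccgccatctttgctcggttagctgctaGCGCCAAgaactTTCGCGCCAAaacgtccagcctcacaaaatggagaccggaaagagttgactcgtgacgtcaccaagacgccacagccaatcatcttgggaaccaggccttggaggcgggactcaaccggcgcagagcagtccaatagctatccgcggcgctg
Rrm2 (chr12:24708004-24708253, plus strand): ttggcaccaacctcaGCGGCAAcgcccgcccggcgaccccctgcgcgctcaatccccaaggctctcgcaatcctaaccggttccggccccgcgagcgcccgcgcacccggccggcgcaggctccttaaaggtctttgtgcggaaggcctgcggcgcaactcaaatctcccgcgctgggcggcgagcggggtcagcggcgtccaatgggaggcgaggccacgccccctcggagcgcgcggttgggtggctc
Chaf1a (chr17:56040166-56040415, plus strand): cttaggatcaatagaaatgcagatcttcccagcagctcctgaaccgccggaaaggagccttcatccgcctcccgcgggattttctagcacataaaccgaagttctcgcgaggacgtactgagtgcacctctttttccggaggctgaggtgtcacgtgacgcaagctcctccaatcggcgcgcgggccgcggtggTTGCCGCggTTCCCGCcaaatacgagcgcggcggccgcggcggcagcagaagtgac
Rfc3 (chr5:151651209-151651458, minus strand): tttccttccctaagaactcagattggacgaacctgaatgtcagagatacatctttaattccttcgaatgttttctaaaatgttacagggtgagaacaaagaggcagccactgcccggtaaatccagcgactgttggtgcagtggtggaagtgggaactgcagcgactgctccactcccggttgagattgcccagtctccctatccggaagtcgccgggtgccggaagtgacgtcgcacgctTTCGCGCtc
In Mcm6 the 4 matches fall in 2 places, where cores on both strands overlap, starting 109, 106, 46 and 43 bases before the start. Mcm5 holds 3 matches, at 164, 152 and 149 bases. Chaf1a has 2, at 56 and 47 bases. Rfc3 has a single match 9 bases before its start, and Rrm2 has 1 at 235 bases.

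Values are log2 intensities after background correction against blank spots and quantile normalisation, and differences are Cre minus control on that log2 scale, where 1 is 2-fold. Errors are SD over 3 arrays for group means and SE from limma for differences. On each array 82.9 to 87% (Cre) or 87.4 to 90.8% (control) of probes lay above background, and 6 arrays limit the precision. The targeted gene was checked first. The brighter Chd7 probe read 6.92, 7.49 and 6.95 on the control arrays and 6.00, 5.97 and 6.01 on the Cre arrays, a difference of -1.13 (SE 0.16; limma adjusted p = 0.397 over all probes; exact two-sided permutation p = 0.1, the smallest 3 arrays against 3 can give). Its groups did not overlap. The dimmer Chd7 probe differed by -0.11 (SE 0.06), with overlap, and the sources used here do not say where either probe lies relative to the floxed part.

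All 10 astrocyte markers on the list lay above background on every array. Their summed level in the authors' linear values was 4652 to 8362 in control and 6235 to 7967 in Cre cultures. Such counts say little about which cells were present. Of 21434 fitted probes without a missing value, 18697 lay above background on all 6 arrays. Markers of other cells were read in the same way. Microglia and macrophage markers summed to 228 to 264 in control and 114 to 167 in Cre cultures, with 8 of 10 above background on all arrays and Itgam on none. Fibroblast and mural markers summed to 6287 to 10499 and 5738 to 9125, with 9 of 10 above background throughout. All 10 neuron markers (sums of 1029 to 1604 over the 6 arrays), all 9 measured oligodendrocyte lineage markers (1678 to 3342) and all 6 measured neural stem cell markers (49268 to 52553) lay above background throughout. Of 8 endothelial markers (sums of 75 to 192 over the 6 arrays), 3 lay above background throughout. Pecam1, Cdh5 and Sox18 did so on some arrays, and Tek and Cldn5 on none.

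The main question was whether cultures given Cre differ from controls in the replication programme. No member passed: 0 of 40 genes had a limma adjusted p under 0.05 (smallest 0.774, Rfc3), as did 0 of 21456 probes tested, 0% of them. At an unadjusted p under 0.05 stood 2 of the 40 members, against 5.53% of all probes, a share near that background. Of these, 1 was higher in Cre cultures (Chaf1a), against 2.75% of all probes, and 1 was lower (Rfc3), against 2.79%. Of the 40 genes, 25 had a higher mean in Cre cultures and 15 a lower one, where 49.7% of all probes were higher. The median difference over members was 0.02, and over all probes -0.00051. Differences ran from -0.17 (Gins1) to 0.43 (Rrm2). With the replicate number as a block, again 0 members passed and 0% of all probes, with 5 members at an unadjusted p under 0.05 (Gins1, Prim1 and Rfc3 lower, Rfc2 and Rrm2 higher), against 9.23% of all probes. The count of 2 fell to 1 without control replicate 1, control replicate 3, Cre replicate 2 or Cre replicate 3.

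**Figure D1:**
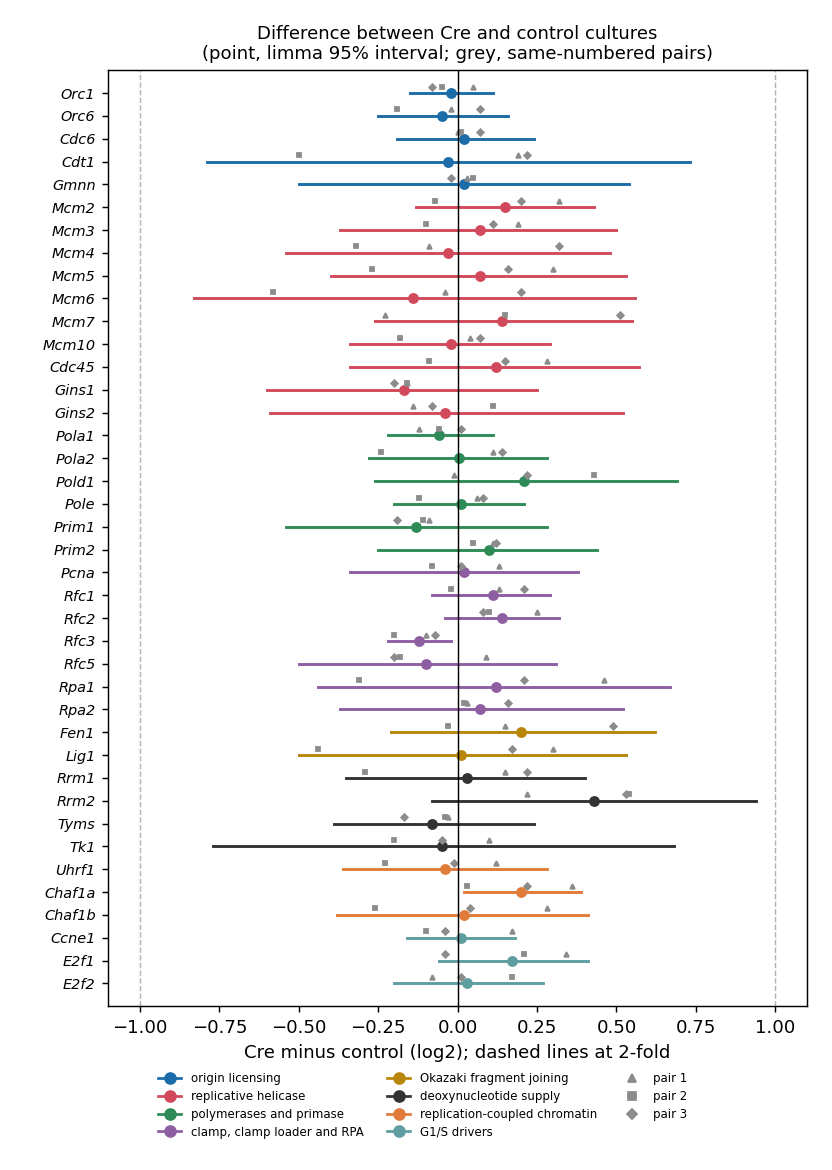
Cre minus control difference (log2) for each of the 40 genes, with points at the estimate, bars for limma's 95% interval (3 arrays per group), colours for the role groups and grey symbols for the same-numbered pairs. Intervals of Rfc3 and Chaf1a lie off 0, and no bar reaches the dashed lines at 2-fold.

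How large a change the arrays could have missed follows from the intervals. The 95% interval lay within 2-fold either way for all 40 members, and within 1.5-fold for 31. The widest were -0.79 to 0.73 for Cdt1, -0.77 to 0.68 for Tk1 and -0.83 to 0.56 for Mcm6, and the highest bound was 0.94 for Rrm2. They hold for the offset of 50, which draws dim probes together: with plain subtraction of the blank mean the Chaf1a difference was 0.52 and not 0.20, and that of Chd7 -2.71 and not -1.13. They hold for the blank-spot background too: with the local background column, at the same offset of 50, Rrm2 stood at 0.82, Pcna at -0.91 and Rfc3 at -0.67. These intervals are not adjusted for the number of genes. A p that misses the threshold does not show that the groups were equal.

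Origin licensing had 5 measured genes, with differences between -0.05 and 0.02. Orc1 and Orc6 encode subunits of the origin recognition complex, and Orc6 had the smallest p of this role. Orc6 read 10.42, 10.66 and 10.38 in control replicates 1, 2 and 3 and 10.40, 10.47 and 10.45 in Cre replicates 1, 2 and 3 (difference -0.05, SE 0.08), with the Cre arrays inside the control range. Orc1, close to background at 6.21 ± 0.07 (SD, n = 3), differed by -0.02 (SE 0.05). Cdc6, the ATPase that loads the helicase, differed by 0.02 (SE 0.09). Cdt1, its partner, differed by -0.03 (SE 0.30), the widest error on the list, as control replicate 2 read 8.06 and control replicate 1 read 6.94. Gmnn encodes geminin, which binds Cdt1 and blocks a second round of loading. It read 8.34, 8.83 and 8.89 in control and 8.37, 8.88 and 8.87 in Cre cultures, a difference of 0.02 (SE 0.21). Within each same-numbered pair its values lay within 0.05 of each other, while replicate 1 stood below the others in both groups.

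The replicative helicase had 10 measured genes: the 6 subunits of the Mcm2 to Mcm7 ring, Mcm10, Cdc45 and 2 GINS subunits. The median difference was 0.02, with 5 higher and 5 lower and none past the threshold. Mcm2 read 6.85, 7.13 and 7.15 in control and 7.16, 7.06 and 7.35 in Cre cultures (0.15, SE 0.11). Mcm3 read 7.03, 7.63 and 7.37 against 7.22, 7.53 and 7.48 (0.07, SE 0.17). Mcm4 read 8.77, 9.37 and 8.81 against 8.68, 9.05 and 9.13 (-0.03, SE 0.20). In each of these 3 subunits the groups overlapped, and control replicate 1 was the lowest control array. Mcm5 read 6.73, 7.39 and 7.19 against 7.04, 7.12 and 7.35 (0.07, SE 0.19). Mcm6 read 7.94, 8.80 and 8.42 against 7.90, 8.22 and 8.62 (-0.14, SE 0.28). Mcm7 read 9.65, 9.66 and 9.55 against 9.42, 9.81 and 10.06 (0.14, SE 0.16). Only Mcm7 of the ring did not have replicate 1 as its lowest control array. Its control arrays lay between 9.55 and 9.66, and its Cre arrays were spread more widely. In Mcm2 the lowest Cre array was replicate 2. The ring subunits, which act as 1 hexamer, thus gave differences between -0.14 and 0.15, each smaller than 2 of its standard errors. The sign was not stable: it changed with the local background column for Mcm3, Mcm4 and Mcm7, and with 1 array left out for Mcm3 to Mcm7. With the authors' values Mcm3, Mcm5 and Mcm7 stood at -0.05, -0.01 and -0.03. All 3 lay above the median of all probes on that scale, which was -0.17.

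Of the factors that turn the ring into a moving helicase, Cdc45 differed by 0.12 (SE 0.18) and Mcm10 by -0.02 (SE 0.13). Gins1 and Gins2 encode subunits of GINS. Gins1 read 7.35, 7.37 and 7.80 in control and 7.19, 7.21 and 7.60 in Cre cultures, with overlapping groups. Its pair differences were -0.16, -0.16 and -0.20, so that every Cre array lay below its same-numbered control by a similar amount. The difference was -0.17 (SE 0.17, limma adjusted p = 0.999). With the block the SE was 0.03 and limma gave an unadjusted p of 0.00745 and an adjusted p of 0.393. Without control replicate 3 the difference was -0.03, and without Cre replicate 3 it was -0.31. With the authors' values it was -0.40, where the median of all probes was -0.17. Gins2 had no such shape, with pair differences of -0.14, 0.11 and -0.08.

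Polymerases and primase had 6 measured genes with differences from -0.13 to 0.21 and a median of 0.01. Pola1 and Pola2 encode subunits of polymerase alpha, which extends the primers, and differed by -0.06 (SE 0.07) and 0.003 (SE 0.11). Prim1 and Prim2 encode the primase that makes those primers. Prim1 read 7.90, 8.37 and 8.23 in control and 7.81, 8.25 and 8.04 in Cre cultures (-0.13, SE 0.16). It was lower in every pair, by -0.09, -0.11 and -0.19 (with the block, limma unadjusted p = 0.0278 and adjusted p = 0.47), although the groups overlapped. Its difference was -0.02 without Cre replicate 1, -0.03 without control replicate 2, -0.26 without control replicate 1 and -0.53 with the local background column. Prim2 went the other way in every pair, at 0.11, 0.05 and 0.12. The estimates for the primase subunits thus had opposite signs, but each was smaller than its SE in the main fit (Prim2 0.10, SE 0.14). Pold1, the catalytic subunit of the lagging-strand polymerase delta, read 7.57, 7.48 and 7.93 against 7.56, 7.90 and 8.15 (0.21, SE 0.19). Pole, the catalytic subunit of the leading-strand polymerase epsilon, was dim at 6.09 ± 0.15 and 6.09 ± 0.05 (SD, n = 3) and differed by 0.01 (SE 0.08).

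The clamp, its loader and the single-strand binding protein RPA had 7 measured genes with a median difference of 0.07. Pcna, the ring that holds polymerases on DNA, read 11.44, 11.92 and 11.78 in control and 11.57, 11.84 and 11.79 in Cre cultures. Its difference was 0.02 (SE 0.14, 95% interval -0.34 to 0.38), and replicate 1 was the low array in both groups. In the authors' linear values Pcna read 1551, 2450 and 2395 in control and 1736, 1854 and 2054 in Cre cultures, where its log2 difference was -0.15 and the median of all probes was -0.17. Rfc1 to Rfc5 encode the loader that opens the clamp. Rfc3 read 9.52, 9.59 and 9.55 in control and 9.41, 9.40 and 9.48 in Cre cultures, without overlap and lower in each pair. The difference of -0.12 (SE 0.04, 95% interval -0.22 to -0.02) did not pass (limma adjusted p = 0.774). It was -0.31 with the authors' values, again beside a median of -0.17 over all probes. Rfc2 was higher in each pair, by 0.25, 0.10 and 0.08 (0.14, SE 0.07). Rfc1 differed by 0.11 (SE 0.07). Rfc5 read 7.23, 7.79 and 7.67 in control and 7.32, 7.61 and 7.47 in Cre cultures, with overlap (-0.10, SE 0.16), so the 4 measured loader subunits went both ways. Rpa1 and Rpa2, RPA subunits, differed by 0.12 (SE 0.22) and 0.07 (SE 0.18).

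Okazaki fragments are trimmed by the flap nuclease Fen1 and sealed by the ligase Lig1. Fen1 read 7.64, 8.10 and 7.77 in control and 7.80, 8.07 and 8.26 in Cre cultures (0.20, SE 0.17), with overlap. The brighter Lig1 probe differed by 0.01 (SE 0.21) and its other probe by 0.40 (SE 0.26), the latter carried by the third pair (0.06, 0.05 and 1.07). The 2 probes thus disagree in size, and control replicate 3 was low on the dimmer one, at 6.52.

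Deoxynucleotide supply held the largest difference on the list. Rrm2 encodes the small subunit of ribonucleotide reductase, the enzyme that makes deoxynucleotides and whose small subunit is limiting in S phase. It read 9.09, 9.36 and 9.45 in control and 9.31, 9.90 and 9.98 in Cre cultures. In the authors' linear values the same arrays read 285, 419 and 415 against 343, 464 and 565. The Cre array was above its same-numbered control in every pair, by 0.22, 0.54 and 0.53, but Cre replicate 1 lay inside the control range. The difference was 0.43 (SE 0.20, limma adjusted p = 0.955). With the block the SE was 0.08 and limma gave an unadjusted p of 0.00826 and an adjusted p of 0.393. Without Cre replicate 1 the difference was 0.64 and without Cre replicate 3 it was 0.30. It was 0.82 with the local background column and 0.29 with the authors' values, where the median of all probes was -0.17. Rrm1, the large subunit of the same enzyme, differed by 0.03 (SE 0.15), with pair differences of 0.15, -0.29 and 0.22. Tyms, which makes thymidylate, differed by -0.08 (SE 0.13), and Tk1, the salvage kinase for thymidine, by -0.05 (SE 0.29). Tk1 read 7.78, 8.52 and 8.64 in control and 7.88, 8.32 and 8.60 in Cre cultures, so replicate 1 stood apart in both.

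In chromatin assembled behind the fork, Chaf1a and Chaf1b encode subunits of the histone chaperone CAF-1, and Uhrf1 guides the copying of DNA methylation. Chaf1a read 6.19, 6.28 and 6.29 in control and 6.55, 6.30 and 6.51 in Cre cultures, without overlap. The gap between the highest control array and the lowest Cre array was small, and the probe is dim. The difference of 0.20 (SE 0.07, 95% interval 0.02 to 0.39) did not pass (limma adjusted p = 0.854). Chaf1b, its partner, differed by 0.02 (SE 0.16) and Uhrf1 by -0.04 (SE 0.13). Groups without overlap were thus 2 of the 40 members, Rfc3 and Chaf1a, where 10.4% of all probes showed no overlap.

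The switch into S phase was represented by cyclin E1 and by E2f1 and E2f2, transcription activators of this programme. E2f1 read 7.12, 7.02 and 7.20 in control and 7.47, 7.23 and 7.16 in Cre cultures (0.17, SE 0.09), with overlap. Ccne1 differed by 0.01 (SE 0.07) and E2f2 by 0.03 (SE 0.09). None of these 3 genes was lowest in replicate 1 in both groups, unlike most of the other members.

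**Figure D2:**
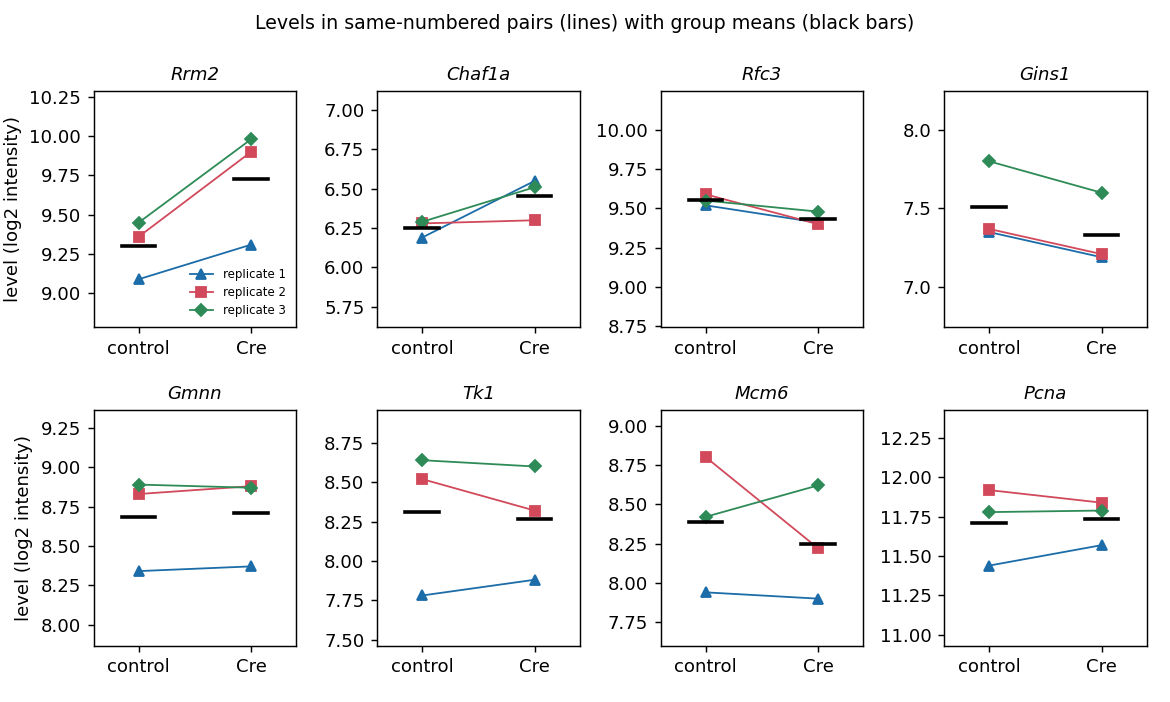
Log2 intensity of 8 members in control and Cre cultures, with lines joining same-numbered arrays and black bars for the means of 3; every panel spans 1.5 log2 units. Rrm2 lies higher and Gins1 lower in every pair, while in Gmnn, Tk1, Mcm6 and Pcna replicate 1 is the low array of both groups.

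Many members also shared a shape that followed the replicate number. Replicate numbers were taken to pair the samples, since same-numbered arrays deviated together over all probes. Replicate 1 was the lowest of its 3 arrays for 33 of 40 members in control cultures (29.8% of all probes) and for 29 in Cre cultures (35% of all probes). It was lowest in both groups for 26 members, 65% of them, against 13.5% of all probes. Relative to each gene's mean over 6 arrays, the median member stood at -0.20, 0.16 and 0.01 in control replicates 1, 2 and 3 and at -0.13, 0.04 and 0.11 in Cre replicates 1, 2 and 3. In the fit with the block, the median member was 0.22 higher in replicate 2 and 0.25 higher in replicate 3 than in replicate 1. An F test of the replicate number over all probes, added after the data were seen, gave 0 members and 0 probes (0%) at a limma adjusted p under 0.05. The smallest adjusted p among members was 0.126 (Gmnn). At an unadjusted p under 0.05 stood 16 of the 40 members, against 13.8% of all probes. They were Gmnn, Gins1, Prim1, Tk1, Prim2, Rpa2, Gins2, Tyms, Pcna, Mcm3, Cdc6, Rrm2, Rfc5, Cdc45, Pold1 and Mcm10. With the local background column in place of blank spots, 8 members and not 26 were lowest in replicate 1 in both groups.

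**Figure D3:**
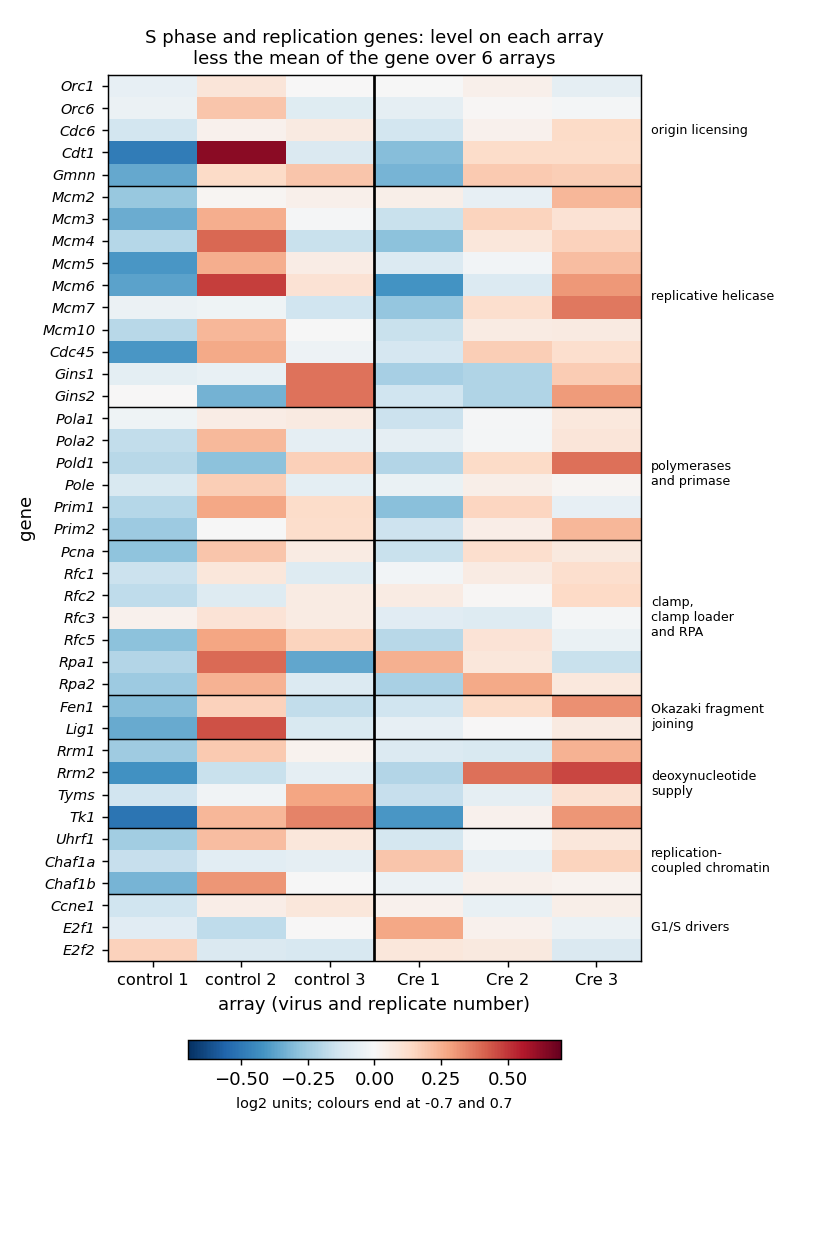
Level of each member on each array less the mean of that gene over the 6 arrays (log2; red above, blue below), ordered by role. Blue prevails in control 1 and Cre 1, and the E2f1 and E2f2 rows at the foot are not lowest there in both groups.

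By role, replicate 1 was lowest in both groups for 7 of 10 helicase genes, 5 of 6 polymerase and primase genes and both Okazaki genes. It was so for 3 of 5 licensing genes, 4 of 7 clamp, loader and RPA genes, 3 of 4 deoxynucleotide genes, 2 of 3 chromatin genes and 0 of 3 drivers. Members with an E2F core upstream (15 measured genes) were 0.28 and 0.26 higher in replicates 2 and 3 than in replicate 1, and the 18 measured genes with a window but no core were 0.22 and 0.23 higher. Both sets thus had a like shift. Their median differences by virus were 0.02 and 0.01.

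The pairs did not share a direction by virus. The Cre array was the higher one for 28 of 40 members in the first pair, 12 in the second and 28 in the third, where 47.3, 51.9 and 49.8% of all probes were. Median differences over members were 0.11, -0.10 and 0.08 in these pairs. Control replicate 2, which held the most probes above background of the 6 arrays (90.8%), also held the highest median member level, and its part in the second pair's sign was not tested. A Cre array above its control in all 3 pairs was seen for 6 members, and below it for 4, against 14.5 and 15.3% of all probes.

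Other genes of the same process, from lists set by function, were read beside the members. Of 46 further replication genes, 42 were measured, 14 higher and 28 lower in Cre cultures, with a median of -0.03 and 0 past the threshold (0%). Their smallest p belonged to Orc5, an origin recognition subunit, at 8.49, 8.44 and 8.58 in control and 8.15, 8.29 and 8.21 in Cre cultures. The difference was -0.28 (SE 0.06, limma adjusted p = 0.559). Asf1a, a histone chaperone that hands histones to CAF-1, read 10.39, 10.83 and 10.69 against 10.09, 10.34 and 10.23 (-0.41, SE 0.13, limma adjusted p = 0.767). Rnaseh2a, a subunit of the nuclease that removes RNA from DNA, read 8.37, 8.42 and 8.38 against 8.28, 8.35 and 8.24 (-0.10, SE 0.04). These 3 genes, picked by smallest p, were the 3 of 42 whose groups did not overlap, where 10.4% of all probes did not. Replicate 1 was lowest in both groups for 23 of these 42 genes (54.8%).

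Among 29 genes of G1/S control the median difference was 0.03, with 16 higher, 13 lower and 0 past the threshold. Cdk4, the cyclin D kinase that begins the release of E2F, read 10.85, 10.71 and 10.89 in control and 10.62, 10.42 and 10.47 in Cre cultures (-0.32, SE 0.07, limma adjusted p = 0.62). Its partner Ccnd3 read 8.91, 8.60 and 8.69 against 9.06, 9.14 and 9.02 (0.34, SE 0.09, limma adjusted p = 0.686). The repressor E2f5 read 8.60, 8.70 and 8.73 against 8.40, 8.52 and 8.50 (-0.20, SE 0.05, limma adjusted p = 0.681). These 3 genes were picked by smallest p, and their groups did not overlap, as in 5 of the 29 genes of the list and 10.4% of all probes. Cdk4 and Ccnd3 lay on opposite sides, and values of the other D cyclins on the list are not given here. Replicate 1 was lowest in both groups for 7 of 29 genes (24.1%), against 13.5% of all probes.

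Of 20 G2 and mitosis genes, 19 were measured, with a median difference of 0.05, 14 higher, 5 lower and 0 past the threshold. Cks2, a subunit of mitotic kinase complexes, read 9.85, 10.22 and 10.19 in control and 9.79, 9.82 and 9.95 in Cre cultures (-0.23, SE 0.11). Kif23, a motor of cytokinesis, read 6.63, 6.84 and 6.70 against 6.77, 6.94 and 6.91 (0.14, SE 0.07). Ube2c, which helps to destroy mitotic cyclins, read 9.30, 9.59 and 9.49 against 9.40, 9.69 and 9.87 (0.19, SE 0.14). In all 3 the groups overlapped. By replicate, these genes stood at -0.24, 0.25 and -0.06 in control and -0.22, 0.11 and 0.21 in Cre cultures, and 16 of 19 (84.2%) were lowest in replicate 1 in both groups. The S phase members gave a like order on the Cre arrays and the same lowest and highest array among the controls.

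**Figure D4:**
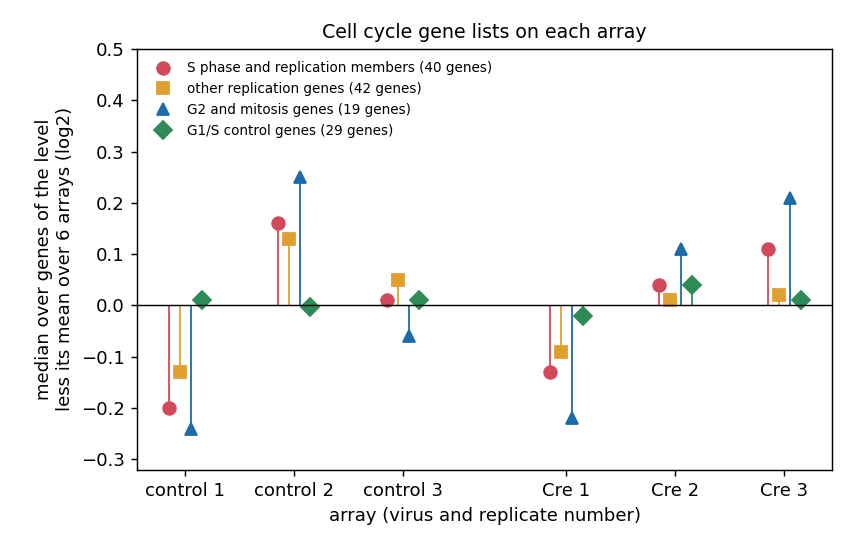
Median over genes of the level less each gene's mean over 6 arrays (log2), for 4 cell cycle lists on each array. The S phase members and the G2 and mitosis genes are below 0 on both replicate 1 arrays, and G1/S control genes stay between -0.02 and 0.04.

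Fibroblast and mural markers stood at 0.29, -0.50 and 0.04 in control and 0.19, -0.36 and 0.07 in Cre cultures, so replicate 2 was lowest in both groups, and 8 of 10 of these genes had an unadjusted replicate p under 0.05, against 13.8% of all probes. None passed after limma's adjustment (smallest adjusted p = 0.0776). At the same unadjusted threshold stood 4 of 10 astrocyte, 4 of 6 neural stem cell, 3 of 10 neuron, 2 of 9 oligodendrocyte, 1 of 6 endothelial and 0 of 9 microglia and macrophage markers. The fibroblast and mural sum in the authors' values was 10499, 8822 and 6287 in control and 9125, 5738 and 6348 in Cre cultures, highest in replicate 1 of both. The part of these cells in the members' pattern was not tested. Microglia and macrophage markers had a median difference of -0.17 by virus and astrocyte markers of 0.24, beside 0.02 for the S phase members. Of 9 microglia and macrophage markers, 7 were lower in Cre cultures and 4 had groups without overlap. Of 10 astrocyte markers, 9 were higher and 2 had groups without overlap, where 10.4% of all probes had none. In both lists 0 genes passed the adjusted threshold.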

How the data were processed

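Cy5-labelled amplified RNA from 6 samples was hybridised to 1-colour arrays, per the labels' protocols. Scanner files deposited by the authors hold a median intensity per spot and a local background intensity, per the file headers. The authors' processed intensities form a second deposited table, with a median of 25 on every array. Set against the scanner values, they equal a spot's median minus roughly the blank mean, over a constant for the array (1.44 to 1.94), and no source used here says how that constant was set. Intensities were corrected by normexp against 2736 blank spots (limma 3.58.1, nec, offset 50), log2 transformed and quantile normalised; this compresses differences of dim probes. Above background means more than 2 SD over the blank mean. Spots marked by the scanner at any gain were left out (0 to 13 per array).

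The 21456 probes with a value on at least 3 arrays in the authors' table were fitted with limma (lmFit, then eBayes; two-sided). P-values were adjusted by Benjamini-Hochberg over all of these probes, with a threshold of 0.05, and the members were read from that fit, which was tested on simulated data. The 2 groups of 3 were compared without a block as the main design. The correlation of deviations from the group mean was 0.497, 0.424 and 0.435 for arrays of the same number and -0.372 to -0.167 for others. Deviations were taken from the mean of the same 3 arrays, so positive values for same-numbered arrays force negative ones among the others. The shared numbers were taken to pair the samples from the positive values, and the labels do not state a shared culture or day. Symbols came from the platform annotation, matched through Entrez identifiers to RefSeq's table (20556 of 23473 probes, 0 symbols changed). The members and the gene lists were chosen with earlier results of these data known. Values per array are given for the smallest p in each role, the 5 largest differences each way, members whose groups do not overlap, Mcm2 to Mcm7 and Pcna, and the 3 genes of each other cell cycle list with the smallest p (marker lists are given as list values only); Gmnn and Tk1 were given per array after their values were seen. Alternatives covered background, offset, scaling, filters, the block and each array left out.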

Additional observations from a re-analysis of the deposited data

How the results depend on the processing

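Under each alternative run, 0 members passed the adjusted threshold, the replicate block and each left-out array included. Of all probes 0 passed as well, but this was not computed for the mean of a gene's probes. Chd7 stayed lower throughout, from -2.86 (the authors' values) to -0.52 (local background column). Members at an unadjusted p under 0.05, 2 in the main setting, numbered 1 with plain subtraction of the blank mean, 8 with the local background column, 0 with the authors' values, 1 with median scaling, 1 with offset 16, 5 with the replicate block and 1 to 2 with 1 array left out. Members without overlap were 5 with the local background column, 1 with the authors' values and 1 with median scaling. The share of all probes without overlap was not computed in these settings, so these counts have no background to be read against. All probes at an unadjusted p under 0.05 were 627 with median scaling, 1981 with the replicate block and 2087 with the authors' values, against 1187 in the main setting. They were 1062 with plain subtraction of the blank mean, 1140 with offset 16 and 1315 with the local background column. With that column the members thus rose from 2 to 8 while all probes rose from 1187 to 1315. The members' median difference was -0.13 with the authors' values, where the median of all probes was -0.17 and the members relative to it stood at 0.04; with 1 array left out it ran from -0.08 (without control replicate 1) to 0.12 (without control replicate 2). The 26 members lowest in replicate 1 in both groups became 8 with the local background column, and the cause of that drop was not tested. They numbered 18 to 26 in the other background, offset, scaling and filter settings. This count was not computed for the block, the left-out arrays or the mean of a gene's probes. Signs changed for small differences. With the local background column Mcm3 was at -0.05, Mcm4 at 0.48, Mcm7 at -0.21 and Pcna at -0.91. With the authors' values Mcm3 was at -0.05, Mcm5 at -0.01, Mcm7 at -0.03 and Pcna at -0.15, and with median scaling Pcna was at -0.04. With 1 array left out, the range was -0.10 to 0.04 for Orc6, -0.09 to 0.21 for Mcm3, -0.14 to 0.16 for Mcm4, -0.12 to 0.21 for Mcm5, -0.36 to 0.07 for Mcm6, -0.0044 to 0.31 for Mcm7, -0.12 to 0.12 for Pcna and -0.26 to 0.01 for Rfc5. The counts over all probes at an unadjusted p, the median relative to all probes and the count by replicate 1 were chosen after seeing the data. A slide or scan block was not run, as no file gives a slide or scan. The replicate block changed no other call.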
